A study of Mus musculus with 6 samples.

Results

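Lungs of mice that had expressed a dominant-negative BMP type 2 receptor (dnBMPR2) in smooth muscle for 8 weeks were compared with control lungs across all genes. The comparison used 4 of the 6 arrays of the series, chosen by their labels: 1 female and 1 male pool after 8 weeks of activation and 1 female and 1 male control pool. Each pool held 3 mice, so 12 mice stood behind the 4 arrays, and pools of the same sex were matched when differences were taken. The 8-week pools came from inducible transgenic mice labelled SM22-dnBMPR2. The male control was labelled as carrying SM22-rtTA, the transactivator, without the receptor transgene, and the series description said this of the controls in general. The female control was labelled by sex and strain (FVB/N) alone, with no genotype. The remaining pair of arrays came from SM22-dnBMPR2 mice activated for 1 week, and their values are given beside the others. RNA came from whole lung. The transgenic mice had raised right ventricular pressure, per the series description, and ages and inducer exposure of the controls were not stated. Any difference in age, strain, inducer or handling between the groups cannot be told apart from the transgene. The same holds in the female pair for the transactivator.

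BMPR2 is a receptor kinase of the TGF-beta superfamily. With a type 1 receptor it phosphorylates SMAD proteins, which switch on Id genes and inhibitory SMADs. Inherited mutations of BMPR2 cause pulmonary arterial hypertension, a disease in which small lung arteries narrow, their walls thicken and inflammatory cells gather around them. SM22 (Tagln) is an actin-binding protein of smooth muscle, and its promoter directs expression chiefly to smooth muscle cells.

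Expression was read as the fluorescence intensity of 45037 probe sets, short groups of oligonucleotides that each target a transcript. Levels are given as log2 of the normalised intensity, and a change is the 8-week level minus the control level on that scale, so that a change of 1 is a doubling. The floor, below which values were not distinguished, was 3.95, and a change measured to or from it is a lower bound in size. Deposited medians were 63.4 and 61.4 in the controls and 50.5 and 52.9 after 8 weeks, which normalisation made equal. Across the 6 arrays the first principal component held 45.0% of the variance and separated the sexes, and the second, with 31.7%, set the 8-week pools apart. The sex labels held: the Y-linked genes Eif2s3y and Kdm5d were at the floor in every female pool, and read between 9.38 and 9.78 and between 7.40 and 7.48 in the male pools. Sftpc, the surfactant protein of alveolar type 2 cells, and Scgb1a1, the secretory protein of club cells, read 13.26 and 13.36 in each of the 4 pools, among the brightest signals of lung. Quantile normalisation gives probe sets of equal rank the same value in every array. The identical readings therefore show rank, and not that the amounts were constant. With 2 pools a group, precision was set by how many arrays there were.

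Bmpr2 itself read 11.99 and 12.15 in the female and male control and 11.79 and 11.84 after 8 weeks at its brightest probe set, a change of -0.26 ± 0.14 (SE of the fit, n = 2 pools a group) that did not pass. A dimmer probe set of Bmpr2 read 8.67 and 8.60 in controls, 7.92 and 8.47 at 1 week and 7.73 and 7.68 at 8 weeks, a change of -0.93 that did not pass either (adjusted p = 0.11). The remaining probe set of Bmpr2, dimmer still, did not fall in both pairs. It differed by 0.28 in the female and by -0.26 in the male pair, a change of 0.01. Which of these probe sets the transgene transcript would reach is not given in the sources used here, so they do not check its activation. Tagln (SM22), whose promoter is named in the transactivator's label, read 11.34 and 11.05 in controls and 11.06 and 11.02 at 8 weeks.

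Of 27022 probe sets tested with limma, 56 (0.207%) were higher and 105 (0.389%) were lower at 8 weeks at an adjusted p below 0.05. Called probe sets moved by between 1.21 and 4.74 on the log2 scale, all 161 in the same direction in the female and the male pair. The test picks probe sets with large and even changes in both pairs, so that count is no separate evidence. The adjusted p-values lay just under the threshold, the smallest at 0.0470, while 6216 probe sets had an unadjusted p below 0.05. The calls rested on the whole set of arrays: 0 remained without either control, either 1-week array or the female 8-week array, and 1071 were made without the male 8-week array. Without matching, that is with no sex term, 0 passed. Scaling moved the balance of directions: 34.8% of calls were higher after quantile normalisation, 16.5% in the values as deposited and 45.1% with arrays centred on their medians. For single genes, the brightest probe set with 1 symbol stood for each of 13215 genes, of which 35 (0.265%) were called higher and 7 (0.0530%) lower. At least 2-fold in both pairs, 159 genes (1.20%) were higher and 30 (0.227%) lower. In both pairs, at any size, 5577 genes (42.2%) were higher and 3300 (25.0%) lower, and the median change of all genes was 0.08. These shares of all genes are the background for every list count below. Lists and their members were chosen with earlier results of these data known. A count above the background is therefore a description and no separate evidence.

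**Figure D1:**
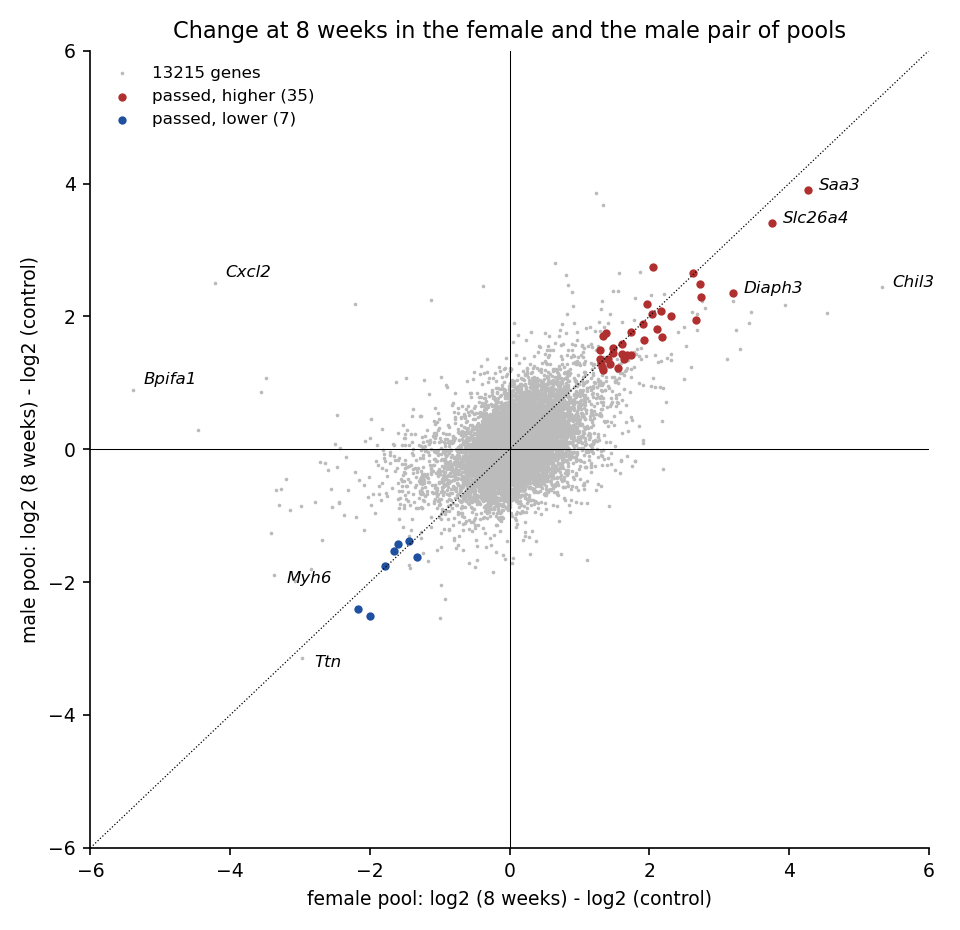
Change in log2 intensity from control to 8 weeks in the female pair of pools (x axis) and in the male pair (y axis), 1 grey point for each of 13215 genes at its brightest probe set. The 35 genes that passed higher (red) and the 7 that passed lower (blue) lie near the dotted line of equal change, while Chil3, Cxcl2 and Bpifa1 lie far from it.

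Apart from a dim probe set of Mndal, described below, the largest rise of a named gene that passed was that of Saa3, a serum amyloid made by macrophages and epithelium in inflammation. It read 6.15 in the female and 6.45 in the male control, 7.63 and 7.89 at 1 week and 10.42 and 10.36 at 8 weeks. That is a change of 4.09 ± 0.16, or 17.0-fold (adjusted p = 0.0470), with no overlap between groups. Slc26a4, the anion exchanger pendrin of airway epithelium, went from 4.10 and 3.95 in controls, the latter at the floor, to 7.86 and 7.36, a change of 3.59 ± 0.28. Hcar2, a receptor for hydroxylated fatty acids on myeloid cells, rose from 4.04 and 4.84 to 6.67 and 7.50 and was at the floor in both 1-week pools. Il1rn, the interleukin 1 receptor antagonist, rose from 4.71 and 5.07 to 7.44 and 7.36. Ms4a7, a membrane protein of macrophages, rose from 5.44 and 5.55 to 7.49 and 8.29, and Ccr1, a chemokine receptor of neutrophils and monocytes, from 5.36 and 6.17 to 8.03 and 8.12. The 8-week pools were the highest of the 6 for each of these genes, in both sexes. C5ar1, the receptor for complement C5a, rose by 2.49 at the probe set that passed, while the difference at its brightest was 0.73. The other genes among the 15 highest were Ifi209, Phgdh, Diaph3 and Mndal, described below, with Slc39a2, a zinc transporter (2.16), Wfdc21, a secreted antiprotease of phagocytes (2.13), Stfa2l1, of the stefin protease inhibitors (2.08), and Ube2d-ps. The last is a pseudogene that rose by 2.19 at 1 probe set and read -0.14 at its brightest, and it may share sequence with its parent genes.

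**Figure D2:**
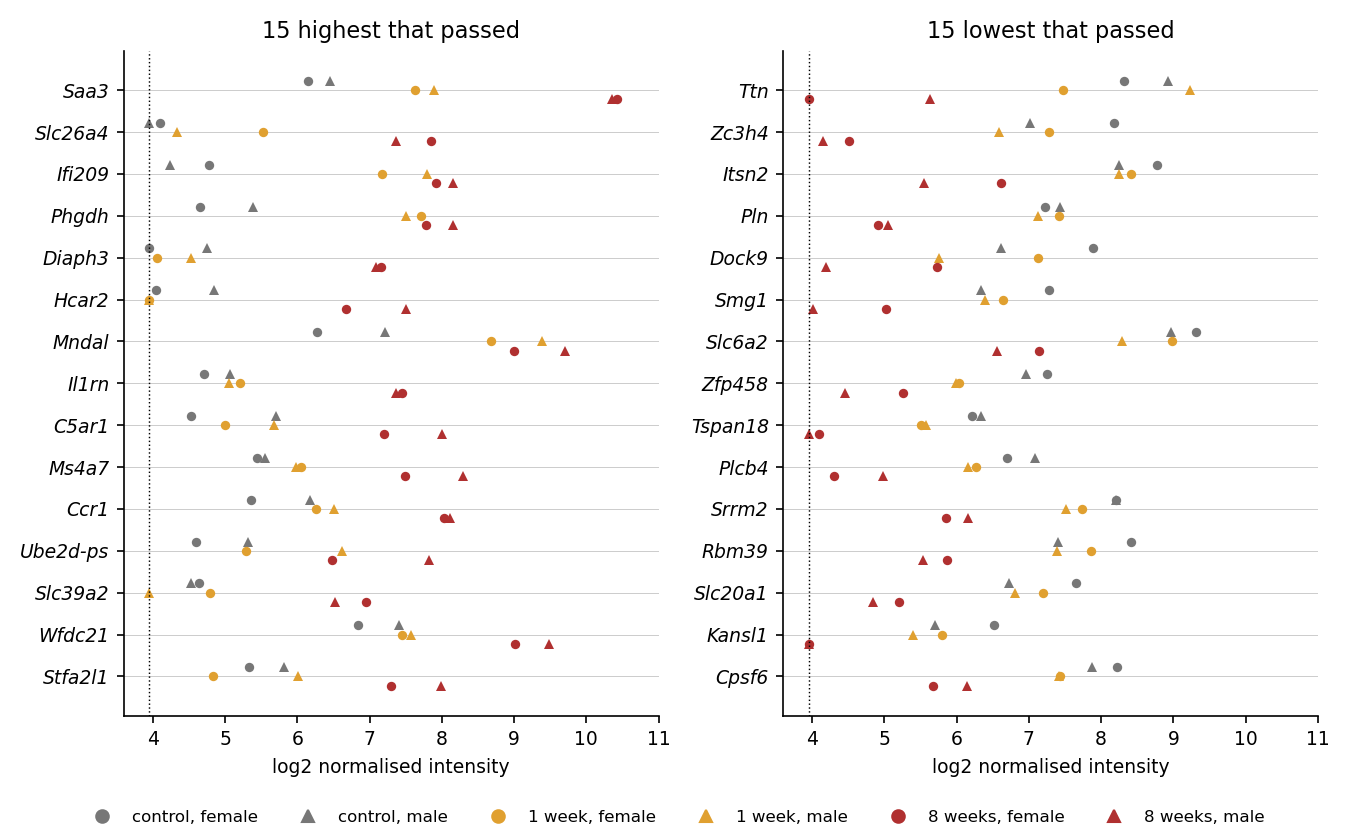
Log2 normalised intensity (x axis) of the 15 highest and the 15 lowest genes that passed, 1 symbol for each of the 6 pools. The dotted line is the floor at 3.95, and the 8-week pools (red) lie beyond the controls (grey) in every row, from 10.36 and 10.42 for Saa3 to the floor for Kansl1.

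Genes of neutrophils lay mostly above control. Of 16 measured genes of neutrophil granules and surface, 15 were higher in both pairs, against 42.2% of all genes, and 4 were called, against 0.265%. The median change was 1.16, against 0.08 for all genes. Mmp8, neutrophil collagenase, read 5.56 and 6.36 in controls, 6.06 and 6.49 at 1 week and 7.67 and 8.17 at 8 weeks (1.96 ± 0.16). Mmp9, gelatinase B, rose from 6.75 and 7.26 to 8.10 and 8.96. Trem1, a receptor that amplifies inflammatory signals, rose from 5.64 and 5.98 to 7.28 and 7.35. Clec4d rose from 6.61 and 7.27 to 8.21 and 8.86. In all 4, the 1-week pools lay closer to the control of their sex than to the 8-week pool. S100a8 and S100a9, which form calprotectin, read 10.83 and 10.87 and 10.35 and 10.02 in controls against 12.10 and 12.43 and 11.96 and 11.93 at 8 weeks, and Fpr2, a formyl peptide receptor, differed by 2.16, without passing (adjusted p = 0.0571 for S100a8 and Fpr2, 0.0589 for S100a9). Mpo, the granule peroxidase made by precursors in bone marrow, read 5.07 and 5.70 in controls and 4.78 and 6.06 at 8 weeks. In whole lung, more cells of a type and more RNA per cell cannot be told apart.

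Stretches upstream of genes of this list are shown because its members moved together. In windows of 300 bases around start sites (250 before, 50 after; RefSeq, GRCm38.p6, the reference genome and not FVB/N), 15 of the 16 genes matched. The hexamer GAGGAA, the core bound by the myeloid factor PU.1, was in 12 of these 15 windows on either strand, 80%, against 28.3% of all 32851 windows. The pattern TTNCNNAA, bound by C/EBP factors, was also in 12, against 40.7%, and both were in 9 (60%, against 11.8%). A match is a description of the letters and not a binding site. The capitals below mark both patterns in Mmp8 (chr9:7558189-7558428, plus strand), Trem1 (chr17:48232539-48232738, plus strand) and Fpr2 (chr17:17887624-17887823, plus strand), each ending at the base before the start site, and C/EBP patterns alone in Saa3 (chr7:46715757-46715906, minus strand), from 230 to 81 bases upstream.
Mmp8: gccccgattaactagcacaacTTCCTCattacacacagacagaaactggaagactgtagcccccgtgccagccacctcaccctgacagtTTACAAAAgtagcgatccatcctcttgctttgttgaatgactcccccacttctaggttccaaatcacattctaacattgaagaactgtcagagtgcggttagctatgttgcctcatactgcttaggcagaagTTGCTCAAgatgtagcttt
Trem1: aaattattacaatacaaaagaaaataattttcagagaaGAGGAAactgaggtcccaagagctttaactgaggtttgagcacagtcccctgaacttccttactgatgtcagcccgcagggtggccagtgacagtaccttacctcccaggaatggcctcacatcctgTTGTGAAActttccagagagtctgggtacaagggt
Fpr2: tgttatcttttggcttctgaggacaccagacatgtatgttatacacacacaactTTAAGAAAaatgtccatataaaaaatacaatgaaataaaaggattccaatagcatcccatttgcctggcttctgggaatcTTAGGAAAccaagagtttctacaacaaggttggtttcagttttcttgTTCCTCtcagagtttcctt
Saa3: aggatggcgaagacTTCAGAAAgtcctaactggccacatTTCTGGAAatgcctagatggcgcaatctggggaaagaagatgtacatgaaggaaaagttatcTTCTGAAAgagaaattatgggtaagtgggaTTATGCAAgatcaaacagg
The Saa3 stretch held 4 matches to TTNCNNAA. Over the 41 windows of genes called higher, GAGGAA was in 13 (31.7%), near its share of all windows, and TTNCNNAA in 24 (58.5%). In the acute phase list GAGGAA was in 2 of 13 windows (15.4%). Spi1, which encodes PU.1, was called higher, from 7.24 and 7.30 in controls and 7.24 and 7.17 at 1 week to 8.79 and 8.53 at 8 weeks (1.39 ± 0.15, adjusted p = 0.0499). Whether PU.1 acted on any of these genes was not tested.

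Genes of alveolar macrophages, the resident phagocytes of the air spaces, had a median change of 1.20 over 23 measured genes. Of these, 17 were higher in both pairs, against 42.2% of all genes, and 1 was lower in both. Calls numbered 2, against 0.265% of all genes. Gpnmb, a glycoprotein of lipid-laden macrophages, rose from 6.47 and 6.90 to 8.12 and 8.31, and Msr1, a scavenger receptor, from 5.48 and 6.19 to 7.10 and 7.63. Larger differences did not pass. Chil3, a chitinase-like protein, read 6.51 and 9.15 in controls, 9.96 and 8.60 at 1 week and 11.84 and 11.59 at 8 weeks (3.89 ± 0.95, adjusted p = 0.12). Siglecf, a sialic acid receptor that marks these cells and eosinophils, read 4.79 and 6.26 in controls and 8.22 and 8.17 at 8 weeks. Marco, a scavenger receptor for particles, read 4.69 and 4.45 in controls and 6.72 and 6.77 at 8 weeks (2.17, adjusted p = 0.0661). For Chil3 and Siglecf the 8-week pools were alike and the control pools were not, the female one being the lower. The female 1-week pool lay above its control by 3.45 for Chil3, and the male 1-week pool below its control. The list's mean level was 7.84 and 8.31 in controls, 8.44 and 8.14 at 1 week and 9.34 and 9.23 at 8 weeks.

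Several other genes, singled out after their values were seen, lay above both controls. Ear3, an eosinophil-associated ribonuclease, read 7.29 and 9.63 in controls and 11.84 and 11.69 at 8 weeks. Ang3 and Ang4, of the angiogenin ribonucleases, differed by 2.76 and 3.06. F7 and F10, neighbouring genes for coagulation factors VII and X, differed by 2.36 and 2.49. Ltc4s, leukotriene C4 synthase, read 5.62 and 5.63 in controls and 7.83 and 7.96 at 8 weeks. Alox15, a lipoxygenase of macrophages and eosinophils, was at the floor in both controls and read 5.40 and 4.94 at 1 week and 5.28 and 7.62 at 8 weeks. None of these passed (adjusted p = 0.0658 for Ltc4s and between 0.0701 and 0.144 for the others), and probe sets of the ribonuclease families may share sequence among near-identical genes. Genes that passed included Pla2g15, a lysosomal phospholipase (from 6.97 and 7.28 to 8.44 and 8.80), Slc15a3, a lysosomal peptide transporter (1.90), and Capg, an actin-capping protein of macrophages (1.28). Of 24 lysosomal enzymes and proton pump subunits, 23 were higher in both pairs with a median of 0.39 and 0 called. Ctss, cathepsin S, differed by 1.16 without passing (adjusted p = 0.0637). In monocyte and interstitial macrophage genes, 13 of 19 were higher in both pairs, the median was 0.55 and Ms4a7 was called.

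Receptors by which myeloid cells sense microbes and antibodies were among the most uniform lists. All 12 measured C-type lectin receptors, which bind sugars, were higher in both pairs, against 42.2% of all genes. Clec4d and Clec10a were called, the latter from 6.70 and 7.29 to 8.17 and 8.74. Clec4n (dectin 2) read 6.19 and 6.86 in controls, 7.07 and 6.34 at 1 week and 9.39 and 9.10 at 8 weeks (2.72 ± 0.35, adjusted p = 0.0589). Clec4a3, Clec4b1, Clec4a2, Clec4n and Clec4d followed each other along the genome among measured genes, and each was at least 2-fold higher in both pairs, as was Clec7a (dectin 1). Of 14 Fc receptors and signalling adaptors, 13 were higher in both pairs with a median of 1.16. Pilra, an inhibitory receptor, rose from 6.21 and 6.36 to 8.39 and 8.05, and Cd300lf, a lipid receptor, from 7.09 and 7.18 to 8.39 and 8.48. Fcgr4, a receptor for IgG, read 6.24 and 5.75 in controls and 8.03 and 8.03 at 8 weeks (adjusted p = 0.0571). Tyrobp, the adaptor DAP12, read 9.85 and 10.05 in controls and 11.35 and 11.06 at 8 weeks. Among 14 Toll-like receptors and adaptors, 12 were higher in both pairs, with Tlr2 at 1.16, and 0 were called. Of 13 G-protein coupled receptors of myeloid cells, 12 were higher in both pairs, against 42.2% of all genes, and 2 were called, against 0.265%. Hcar2 and C3ar1, the receptor for complement C3a, were called, the latter from 5.10 and 5.15 to 6.48 and 6.90. Cfp, properdin, which stabilises the alternative complement pathway, read 6.56 and 6.34 in controls and 8.04 and 8.72 at 8 weeks.

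**Figure D3:**
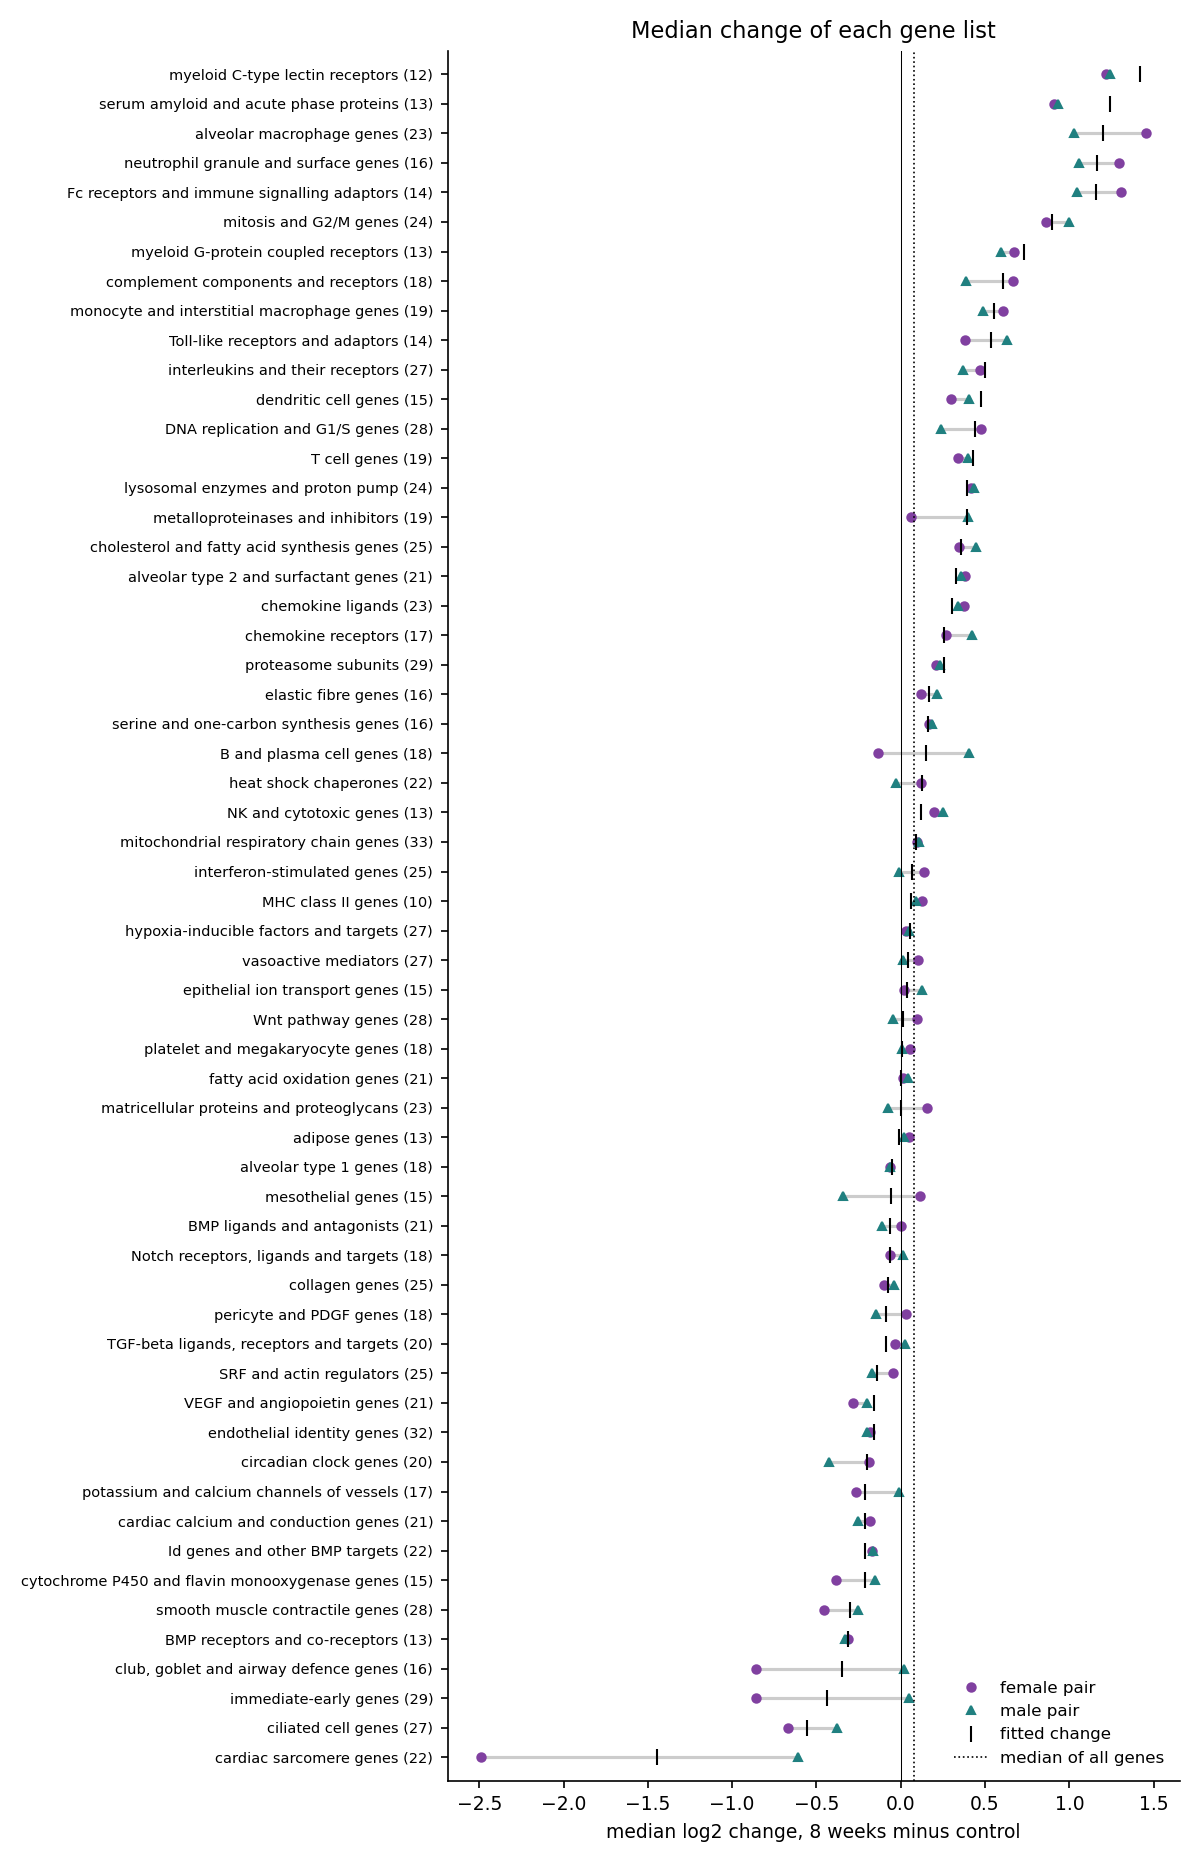
Median log2 change of each list with at least 10 measured genes (number in brackets) in the female pair (circles), the male pair (triangles) and the fit (bars), which need not lie between them because medians do not add. The lists furthest to the right are C-type lectin receptors, acute phase proteins and alveolar macrophage genes, with fitted medians of 1.42, 1.24 and 1.20, and cardiac sarcomere genes lie furthest to the left, where the female and male medians are -2.49 and -0.61.

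Secreted mediators of inflammation differed among themselves. Of 13 acute phase proteins, 9 were higher in both pairs, against 42.2% of all genes, and 3 were called, against 0.265%. The 3 were Saa3, Il1rn and Itih4. Itih4, an inter-alpha-trypsin inhibitor chain, rose from 8.29 and 7.86 to 10.32 and 9.89. Of 23 chemokines, 13 were higher in both pairs, against 42.2% of all genes, and 1 was called, Ccl9, a chemokine for CCR1, from 7.92 and 7.71 to 9.26 and 8.90 (adjusted p = 0.0498). Ccl6, Ccl8 and Ccl12, which draw monocytes, differed by 1.83, 1.62 and 1.70 without passing, and Cxcl9, which draws T cells, by 2.10. Cxcl1 and Cxcl2, which draw neutrophils, set the female control apart from the other 5 pools. Cxcl2 read 10.55 in the female control, 3.95 in the male control, 4.92 and 4.11 at 1 week and 6.34 and 6.45 at 8 weeks. Cxcl1 read 11.05 in the female control and between 6.41 and 8.58 in the others. Of 17 chemokine receptors, 11 were higher in both pairs, against 42.2% of all genes, 3 were lower in both and 3 went opposite ways. Their median was 0.26, and 2 were called, against 0.265% of all genes. These were Ccr1 and Ccr9, the latter from 5.04 and 5.28 to 6.78 and 6.71. Of 27 interleukins and receptors, 17 were higher in both pairs, against 42.2% of all genes. Il6 read 5.96 and 4.21 in controls, 3.95 and 4.17 at 1 week and 7.50 and 6.59 at 8 weeks (1.96, adjusted p = 0.12). Il18 and Il33, of the interleukin 1 family, differed by 1.72 and 1.30, and Csf2rb, the shared receptor chain for GM-CSF, by 1.38.

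In lymphoid lists the median change was 0.43 for 19 T cell genes, 0.15 for 18 B and plasma cell genes and 0.12 for 13 NK and cytotoxic genes, with 0 called in each. B and NK medians changed sign under some alternatives. Of 10 MHC class II genes, 4 were higher in both pairs, near the 42.2% of all genes, and the median was 0.06. The 25 interferon-stimulated genes had a median of 0.07, and 12 of them moved in opposite directions in the female and the male pair. Both of these medians changed sign under some alternatives too.

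The interferon-inducible p200 family, DNA sensors encoded in a cluster of near-identical genes, stood apart from the other interferon genes. Mndal read 6.27 and 7.21 in controls, 8.69 and 9.39 at 1 week and 9.01 and 9.70 at 8 weeks (2.61 ± 0.14). At a second, dimmer probe set both controls were at the floor and the 8-week pools read 8.10 and 9.28. Ifi209 read 4.78 and 4.24 in controls, 7.18 and 7.80 at 1 week and 7.91 and 8.15 at 8 weeks at the probe set that passed (3.52 ± 0.30), but 7.28 and 7.23 in controls and 7.96 and 7.77 at 8 weeks at its brightest. Ifi213 differed by 1.11 (adjusted p = 0.0551), and Ifi204 moved the other way, from 6.81 and 7.26 to 6.05 and 5.77 (-1.12, not passing). Phgdh, the enzyme that opens serine synthesis, followed this course at 1 of its 4 probe sets, which read 4.65 and 5.38 in controls, 7.70 and 7.51 at 1 week and 7.78 and 8.16 at 8 weeks (2.95 ± 0.25). Its brightest probe set read 7.33 and 7.46 in controls, 7.19 and 7.57 at 1 week and 8.31 and 8.84 at 8 weeks, with no such difference at 1 week, and the other 2 differed from control by 0.14 and 0.68 at 8 weeks. At the called probe sets of Mndal, Ifi209 and Phgdh the 1-week pools already lay above the controls, with 8-week levels above those of 1 week by 0.32 for Mndal, 0.54 for Ifi209 and 0.36 for Phgdh.

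Genes of cell division lay mostly above control. Of 24 measured genes of mitosis and G2/M phase, 2 were called, against 0.265% of all genes. In both pairs 23 were higher, against 42.2%, with Kif2c the exception, and the median was 0.90. Diaph3, a formin of the dividing cell cortex, rose from 3.95 and 4.75 in controls and 4.06 and 4.53 at 1 week to 7.16 and 7.09 (2.78 ± 0.24). Ube2c, which serves the anaphase-promoting complex, rose from 5.69 and 5.64 in controls to 6.95 and 7.0 at 1 week and 6.99 and 7.13 at 8 weeks (1.39 ± 0.13). Cdk1, the mitotic kinase, read 6.14 and 6.04, 7.04 and 7.72, and 7.92 and 7.98 in the same order (1.86 ± 0.23, adjusted p = 0.0571). Top2a, which untangles chromosomes, differed by 1.60, Ccna2, cyclin A2, by 1.46, and Mki67, the proliferation marker Ki-67, by 1.30, without passing. For Ube2c and Cdk1, but not Diaph3, the 1-week pools already lay above both controls. The list's mean level was 5.86 and 5.89 in controls, 6.29 and 6.63 at 1 week and 6.73 and 6.95 at 8 weeks. Of 28 DNA replication and G1/S genes, 21 were higher in both pairs, with a median of 0.44. Rrm2, a subunit of ribonucleotide reductase, passed at 1 probe set and differed by 1.07 at its brightest.

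Mitotic promoters are known for a CHR element, TTTGAA, near the start site together with CCAAT boxes bound by NF-Y. In the RefSeq windows, 22 of the 24 genes matched with 24 windows. TTTGAA was in 19 of these (79.2%, against 17.9% of all windows), CCAAT in 19 (79.2%, against 37.4%), and both in 17 (70.8%, against 6.95%), on either strand. In the replication list, whose median was lower, TTTGAA was in 3 of 28 windows (10.7%) and CCAAT in 17 (60.7%). The stretches below end at the base before the start site, with both patterns in capitals: Cdk1 (chr10:69352913-69353012, minus strand), Top2a (chr11:99024190-99024309, minus strand) and Ube2c (chr2:164769809-164769928, plus strand).
Cdk1: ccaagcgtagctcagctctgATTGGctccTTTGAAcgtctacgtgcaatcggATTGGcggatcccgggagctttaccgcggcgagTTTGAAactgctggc
Top2a: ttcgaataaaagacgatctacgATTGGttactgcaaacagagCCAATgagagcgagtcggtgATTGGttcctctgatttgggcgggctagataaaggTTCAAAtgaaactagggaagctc
Ube2c: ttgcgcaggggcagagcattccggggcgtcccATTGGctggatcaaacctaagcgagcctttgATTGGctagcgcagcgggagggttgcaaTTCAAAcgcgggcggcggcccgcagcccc
A TTTGAA match began 15 bases upstream of the start in Cdk1, 23 in Top2a and 29 in Ube2c, the last pair on the opposite strand.

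Genes of heart-type muscle lay mostly below control, though 0 of 22 cardiac sarcomere genes were called at the brightest probe set. In mice, striated muscle of this type sheathes the larger pulmonary veins, and the heart lies beside the lung. Of the 22, 18 were lower in both pairs, against 25.0% of all genes, and the median change was -1.44. Ttn, the giant spring protein titin, fell from 8.32 and 8.92 in controls to 3.95, the floor, and 5.63 at 8 weeks, with 7.47 and 9.23 at 1 week (-3.83 ± 0.32, adjusted p = 0.0470). At its brightest probe set it read 8.62 and 8.55 in controls and 5.64 and 5.40 at 8 weeks, without passing (adjusted p = 0.0589). Myh6, a cardiac myosin heavy chain, was called at a probe set where the controls read 6.02 and 6.10 and both 8-week pools were at the floor. At its brightest it read 11.18 and 11.06 in controls, 10.91 and 11.36 at 1 week and 7.80 and 9.17 at 8 weeks (-2.63 ± 0.37, adjusted p = 0.0632). Tnni3, cardiac troponin I, read 9.69 and 9.37 in controls and 6.35 and 8.76 at 8 weeks, and Actc1, cardiac actin, 11.63 and 11.65 against 10.30 and 10.76. The difference was larger in the female pair, where the median change was -2.49, than in the male pair, where it was -0.61. Mean levels of the list were 9.35 and 9.30 in controls, 9.36 and 9.76 at 1 week and 7.55 and 8.59 at 8 weeks. Over the alternatives tried, the list's median lay between -2.36 and -0.74. How much heart or vein muscle each pool held was not tested.

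Calcium handling genes of this muscle followed in part. Pln, phospholamban, which restrains the calcium pump of cardiac and smooth muscle, was called at 1 probe set, from 7.23 and 7.43 in controls and 7.41 and 7.12 at 1 week to 4.91 and 5.05 (-2.35 ± 0.18). At its brightest it differed by -1.61. Ryr2, the calcium release channel, read 7.21 and 7.48 in controls and 4.15 and 5.49 at 8 weeks (-2.53 ± 0.28, adjusted p = 0.0523), and Sln, sarcolipin of atria, 9.25 and 9.48 against 5.99 and 8.88. Over the 21 measured genes of cardiac calcium and conduction the median was -0.21, with 14 lower in both pairs, against 25.0% of all genes. Nppb, the natriuretic peptide of a loaded ventricle, differed by 0.66 without passing. Of 20 cardiac sarcomere genes matched to 28 RefSeq windows, the CArG box, the site of serum response factor, was in 7 (25.0%, against 1.63% of all windows), and the MEF2 site in 3 (10.7%, against 0.557%). Actc1 (chr2:114052876-114052975, minus strand) holds the first in the 100 bases before its start, and Ttn (chr2:76982648-76982747, minus strand) the second between 200 and 101 bases upstream, in capitals.
Actc1: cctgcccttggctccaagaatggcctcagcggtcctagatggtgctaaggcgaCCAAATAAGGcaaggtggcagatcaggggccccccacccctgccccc
Ttn: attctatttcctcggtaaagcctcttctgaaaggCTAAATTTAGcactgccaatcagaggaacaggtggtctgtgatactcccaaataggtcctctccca

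Smooth muscle, the compartment of the transgene, showed smaller differences. Of 28 contractile genes, 20 were lower in both pairs, against 25.0% of all genes, and 3 were higher. The median was -0.30, and 0 were called at the brightest probe set. Pln, given above, is also in this list. It was called at a dimmer probe set and differed by -1.61 at its brightest. Des and Tpm1 are in both this list and the cardiac sarcomere list. Myh11, smooth muscle myosin, read 10.18 and 9.84 in controls, 10.19 and 10.35 at 1 week and 9.20 and 7.80 at 8 weeks (-1.51, adjusted p = 0.13). Synm, the intermediate filament synemin, read 10.62 and 10.35 in controls and 9.50 and 9.18 at 8 weeks (-1.15 ± 0.15, adjusted p = 0.0590). Hspb6, a small heat shock protein that promotes relaxation, read 8.18 and 7.89 against 7.14 and 6.36. Cnn1, calponin, differed by -0.61 and Acta2, smooth muscle actin, by -0.30. Myh11 and Hspb6 were lower in the male than in the female 8-week pool. Cardiac genes went both ways. Tnni3 and Actc1 were lower in the female 8-week pool, while Ttn at its brightest probe set read 5.64 in the female and 5.40 in the male one.

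In the BMP pathway the receptors were slightly lower. Of 13 receptors and co-receptors, 10 were lower in both pairs, against 25.0% of all genes, and 0 were higher. Their median of -0.31 kept its sign under every alternative tried (-0.43 to -0.16), and 0 were called. Acvrl1, the endothelial type 1 receptor ALK1, read 10.99 and 10.63 in controls and 10.67 and 10.13 at 8 weeks (-0.41). Eng, endoglin, differed by -0.21 and Bmpr1a, a type 1 receptor, by 0.03. Among ligands, Bmp4 differed by -0.58 and Bmp6 by -0.71, while Bmp2 differed by 0.54. Of 22 Id genes and other targets, 13 were lower in both pairs, against 25.0% of all genes, and 3 were higher. Smad6, an inhibitory SMAD, read 10.67 and 10.40 in controls, 10.51 and 9.91 at 1 week and 10.09 and 9.34 at 8 weeks (-0.82 ± 0.17, adjusted p = 0.10). Id1 read 11.07 and 11.05 in controls and 10.69 and 10.42 at 8 weeks (-0.50), and Id4 differed by -1.03. Id3 read 10.68 and 10.53 in controls and 10.67 and 10.50 at 8 weeks, and its change was -0.02 ± 0.13. Hamp and Hamp2, hepcidin genes that BMP signals induce in liver, differed by -1.22 and -1.27, more in the female pair. In the list, 1 gene was called, Tcf21, a mesenchymal transcription factor, at a dim probe set, from 6.44 and 6.82 to 5.01 and 5.14. At its brightest, Tcf21 differed by -0.38.

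**Figure D4:**
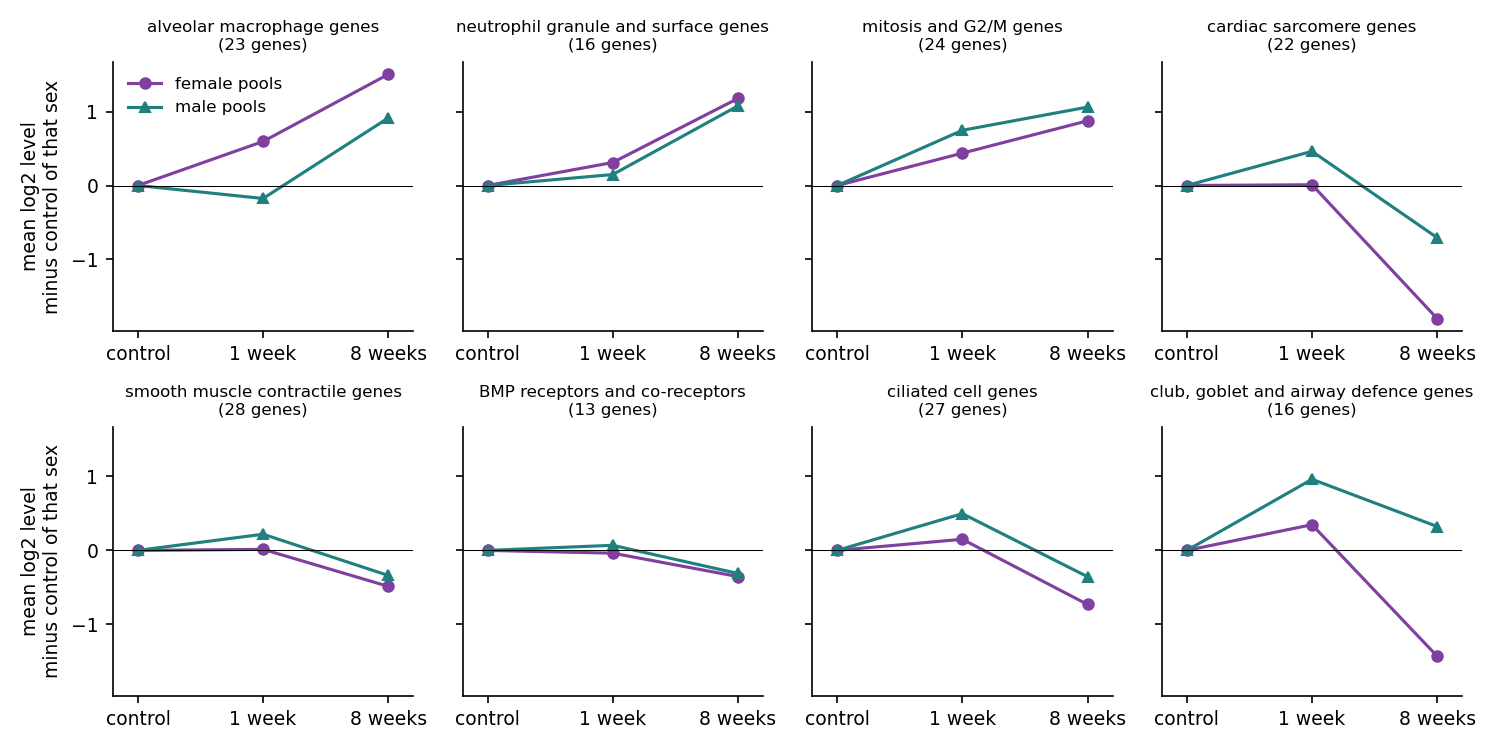
Mean log2 level of 8 gene lists in each pool minus the control pool of the same sex (y axis) at control, 1 week and 8 weeks (x axis), for female (circles) and male (triangles) pools. Neutrophil and BMP receptor genes run alike in both sexes, while cardiac and club cell genes are lowest in the female 8-week pool.

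Matrix genes were mixed. The 25 collagen genes had a median of -0.08, which changed sign under some alternatives, and Col15a1, a basement membrane collagen, differed by 0.98. Eln, elastin, read 9.31 and 9.29 in controls, 10.60 and 10.66 at 1 week and 9.84 and 10.78 at 8 weeks (1.01, not passing). Emilin2, an elastic fibre glycoprotein, differed by 1.26. Of 19 metalloproteinases and inhibitors, the neutrophil genes Mmp8 and Mmp9 were called. Timp1, a metalloproteinase inhibitor, read 6.81 and 6.84 in controls, 7.20 and 7.82 at 1 week and 9.42 and 8.90 at 8 weeks (2.34 ± 0.29, adjusted p = 0.0576). Mmp3, stromelysin, read 5.99 and 6.57 in controls and 7.45 and 8.10 at 8 weeks. The 32 endothelial identity genes had a median of -0.16, which changed sign under some alternatives, with Vwf, von Willebrand factor, at -0.59 and Sox17 at -0.61. Selp, P-selectin of platelets and activated endothelium, read 6.30 and 6.25 in controls and 7.50 and 7.52 at 8 weeks (1.24, adjusted p = 0.0603).

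Epithelial lists diverged between alveoli and airways. Of 21 alveolar type 2 and surfactant genes, 17 were higher in both pairs, with a median of 0.33 and 0 called. Chil1, a chitinase-like protein, read 8.08 and 8.27 in controls and 10.34 and 9.64 at 8 weeks (adjusted p = 0.0680), and S100g, a calcium buffer, 9.18 and 9.47 against 10.88 and 10.82. Cholesterol and fatty acid synthesis genes had a median of 0.36, with 18 of 25 higher in both pairs. The 18 alveolar type 1 genes had a median of -0.05. Of 27 genes of ciliated cells, which clear mucus, 24 were lower in both pairs, against 25.0% of all genes, and 0 were higher. Their median was -0.56, and 0 were called. Rsph1, of the ciliary spokes, read 8.94 and 8.39 in controls, 8.94 and 8.76 at 1 week and 7.70 and 7.51 at 8 weeks (-1.06, adjusted p = 0.0711). Foxj1, the master regulator of these cells, read 8.03 and 7.50 in controls and 7.57 and 7.66 at 8 weeks. Of 16 club, goblet and airway defence genes, 6 were lower in both pairs, against 25.0% of all genes. In the same list 1 was higher in both and 8 went opposite ways, with medians of -0.86 in the female and 0.02 in the male pair. Some secreted airway defence proteins were low in the female 8-week pool and not in the male one. Bpifa1 read 9.34 and 9.78 in controls, 9.78 and 10.92 at 1 week and 3.95, the floor, and 10.67 at 8 weeks. Scgb3a1 read 11.57 and 11.04 in controls against 8.01 and 11.91, Bpifb1 9.0 and 7.99 against 4.54 and 8.27, and Reg3g 7.44 and 7.11 against 3.95 and 8.18. None of these passed. The same female 8-week pool had the lowest cardiac levels, and how much large airway and vein each pool held was not tested.

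Of 20 circadian clock genes, 12 were lower in both pairs, against 25.0% of all genes. Another 2 were higher in both and 6 went opposite ways, with medians of -0.19 in the female and -0.43 in the male pair. Nfil3, a repressor of the clock output, read 5.69 and 5.16 in controls and 7.01 and 7.40 at 8 weeks (1.78, adjusted p = 0.0680). Hlf, an activator of the same targets, read 9.27 and 8.86 against 8.27 and 6.33. Arntl, the core activator BMAL1, differed by -0.38 in the female and by 2.46 in the male pair, and Dbp by -0.33 and -1.47. Per3 was called at a dim probe set (-1.94) and differed by -0.81 at its brightest. Times of day of sampling were not given in the sources used here, and their part in these values was not tested. Among 29 immediate-early genes, the median was -0.86 in the female and 0.05 in the male pair. Atf3 read 9.41 and 7.78 in controls and 7.42 and 7.96 at 8 weeks, and Egr1 12.06 and 11.50 against 10.36 and 11.46. As for Cxcl1 and Cxcl2, the female control was the highest of the 6 pools for Atf3 and Egr1.

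Most genes that passed lower were called away from their brightest probe set. Of 48 genes called lower at any probe set, 45 had several probe sets, and for 41 the one called was not the brightest. At the called probe sets of these 41 the median change was -1.93, and at the brightest ones of the same genes it was -0.24. In 40 of the 41 the brightest moved less, and in 36 it moved by less than 2-fold. The called ones had a median control level of 7.25, against 9.53 for the brightest. Of 46 genes called higher, 12 were called at a probe set other than the brightest, where the median was 1.64 against 0.79 at the brightest.

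Zc3h4, a zinc finger protein that restrains noncoding transcription, read 8.18 and 7.02 in controls and 4.52 and 4.15 at 8 weeks at the called probe set (-3.27 ± 0.22). At its brightest it read 9.36 and 9.22 in controls and 9.18 and 9.29 at 8 weeks. Itsn2, an endocytic scaffold, fell by 2.43 at 1 probe set and differed by 0.01 at its brightest. Srrm2, a splicing scaffold, fell by 2.21 at 1 probe set, and its other 2 differed by -0.05 and -1.01. Rbm39, a splicing factor, had 12 probe sets, of which 1 was called (-2.20), and the other 11 differed by between -1.77 and -0.14. Slc6a2, the noradrenaline transporter, was an exception: its called probe set was the brightest, falling from 9.32 and 8.97 to 7.14 and 6.56, and its other 3 differed by between -0.25 and 0.58. Zfp458, a zinc finger gene, fell by 2.25 at its only measured probe set. The rest of the 15 lowest were Dock9, Smg1, Tspan18, Plcb4, Slc20a1, Kansl1 and Cpsf6, with changes from -2.30 to -2.14.

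**Figure D5:**
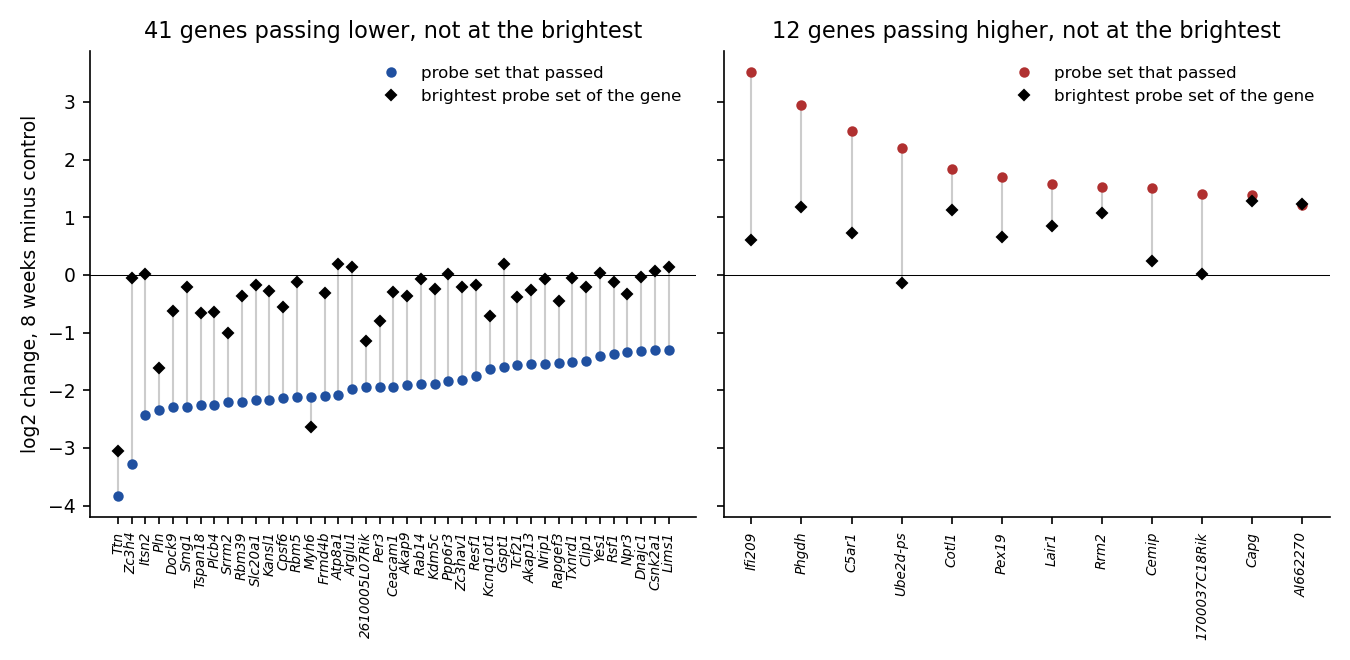
Log2 change from control to 8 weeks (y axis) at the probe set that passed (circles) and at the brightest probe set of the same gene (diamonds), for 41 genes called lower (left) and 12 called higher (right). Most diamonds on the left lie near 0, with a median of -0.24, while the circles have a median of -1.93.

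Probe sets with no gene symbol were called lower more often than named ones: 53 of 3349 (1.58%) against 50 of 23049 (0.217%) with 1 symbol, and they were called higher in 2 (0.0597%) against 48 (0.208%). No test was made of that difference. A few nuclear noncoding RNAs were singled out after their values were seen, and they did not all go one way. Malat1 was called at its brightest probe set, from 12.34 and 11.79 in controls and 12.14 and 11.89 at 1 week to 10.68 and 10.25 (-1.60 ± 0.15), and its other 6 probe sets, of which 1 passed, differed by between -2.02 and -0.96. Kcnq1ot1, an imprinted antisense RNA, passed at 1 probe set (-1.63) and differed by -0.71 at its brightest. Xist, which coats the inactive X chromosome, read 11.05 in the female control and 9.76 in the female 8-week pool at its brightest probe set. That probe set also read between 5.07 and 5.80 in the male pools. At another, at the floor in every male pool, Xist read 11.22 in the female control and 8.90 in the female 8-week pool. These values rest on 1 female pair, and no probe set of Xist passed. Neat1, the scaffold of paraspeckles, differed by -0.44 at its brightest probe set and by 0.56 at the other, without passing, and Meg3 by between -0.84 and 0.55 over 7 probe sets. What the dimmer and unnamed probe sets detect was not tested.

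The 8-week pools were also compared with the 1-week pools, which carry the same transgene. With limma, 0 probe sets passed in either direction (0%), the smallest adjusted p was 0.101, and 5000 had an unadjusted p below 0.05. With trend and robust moderation 752 passed, and with 1 value per gene 118. Of the 15 highest genes against control, 8-week levels exceeded 1-week levels by 2.63 for Saa3, 2.69 for Slc26a4, 2.83 for Diaph3, 3.13 for Hcar2 and 2.27 for Il1rn. For C5ar1 the excess was 2.27 at the called probe set and -0.35 at its brightest. For the called probe sets of Mndal, Ifi209 and Phgdh the excess was the small one given above. For Ttn the difference was -3.56 at the probe set called against control, and for Pln -2.29. List medians from 1 to 8 weeks were 1.12 for neutrophil genes, 1.05 for alveolar macrophage genes, 0.36 for mitosis genes, -1.90 for cardiac sarcomere genes and -0.95 for ciliated cell genes. Both comparisons share the 8-week pools, so their agreement is no separate evidence.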

How the data were processed

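The deposited values were linear intensities of 45037 probe sets on 6 arrays. How the authors summarised the probe signals is not given in the sources used here. Per the labels' protocols, RNA was labelled with biotin, and only the transgenic samples have their freezing and extraction described. The 6 arrays were quantile normalised, values under the 20th percentile (15.5, log2 3.95) were raised to it, and 27022 probe sets with a mean above the 40th percentile were kept. Symbols were read from the array's annotation table, in which 34945 probe sets had 1 symbol, 932 several and 9160 none.

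limma 3.58.1 (R 4.3.3) fitted group and sex over all 6 arrays, leaving 2 residual and 2.77 prior degrees of freedom, and p-values were adjusted by Benjamini-Hochberg. Without replicate pools of a sex, the residual spread is how far the female and male changes differed, so p-values measure only the spread between these pools. Gene lists have no test and are described by counts and medians at the brightest probe set of each gene. Genes named are the 15 highest and 15 lowest that passed in the same direction in both pairs, at the smallest-p probe set with predicted and clone names skipped. In each list they are the members called, up to 4 more by size of change and those that define it. Bmpr2, Tagln, Id1, Id3, Smad6 and sex-linked genes were always looked at. Members and lists were chosen with earlier results of these data known. Plots used matplotlib 3.10.9 (Python 3.11.15).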

Additional observations from a re-analysis of the deposited data

Results flagged for a closer look

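In 5 gene lists the median change from control to 8 weeks went opposite ways in the female and the male pair of pools. The medians were -0.135 and 0.407 for B and plasma cell genes, 0.447 and -0.0648 for mast cell and eosinophil genes, -0.165 and 0.339 for skeletal muscle genes, -0.860 and 0.0184 for club, goblet and airway defence genes, and -0.859 and 0.0490 for immediate-early genes, the female value first. With 1 pool of each sex in a group, these differences were not tested.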

How the results depend on the processing

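The 161 probe sets called against control (56 higher, 105 lower) became 461 in the values as deposited (76 and 385), 705 with arrays centred on their medians (318 and 387), 439 with a floor at the 40th percentile (182 and 257), 583 with log2(value + 16) (231 and 352), 505 with a filter at the 60th percentile (223 and 282) and 1916 with trend and robust moderation (739 and 1177). With 1 value per gene 208 genes passed (158 and 50). Calls fell to 0 when dim probe sets were kept, when sex was left out of the model, when the 1-week arrays were left out and when variances were not moderated. These had 7910, 3565, 4458 and 4073 probe sets at an unadjusted p below 0.05. With only probe sets of 1 symbol, an alternative chosen after seeing the data, 1 passed (1 higher, 0 lower), Saa3. Leaving out an array gave between 0 and 1071 calls (0 to 160 higher, 0 to 911 lower), the highest without the male 8-week pool. The lone pool is then assumed to vary like the others. Against 1 week, 62 passed with a filter at the 60th percentile, 118 with 1 value per gene and 752 with trend and robust moderation. At 1.5-fold in both pairs, 572 genes were higher and 198 lower. None of the 30 named genes changed direction under these alternatives where it was kept. Values at the floor limit how large a change can be seen.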
